A study of Mus musculus with 24 samples.

Results

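Lmo2, Tmem94, Wif1, Acss1 and Esr1 are 5 genes whose messenger RNA was higher after 6 h of depolarization in Npas4 wild-type (WT) neurons from the medial ganglionic eminence (MGE), and lower in MGE neurons of the Npas4 knockout (KO). They were picked for those values in these same arrays, so every MGE difference below is a description with no test. They are 5 of 18194 genes with a probe set of their own on the array and 5 of the 12378 genes tested. Each is read from its probe set with the highest mean, and the other probe sets of Acss1 and Esr1 serve as checks. The cortical (CTX) arrays are not named by the rule that chose the genes, and there each comparison was tested.

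Npas4 is a basic helix-loop-helix PAS transcription factor whose gene is switched on within minutes of calcium entry into a neuron, and which binds DNA together with an Arnt protein. Genes that respond to activity follow in waves: regulators such as Npas4 come first, and later genes, many of them shaping synapses, follow hours afterwards and differ between inhibitory and excitatory neurons. The 5 genes do unlike things. Lmo2 is a LIM-only adaptor that holds DNA-binding proteins together in transcription complexes and is best known from blood and vessel formation. Esr1 is oestrogen receptor alpha, a hormone-gated transcription factor. Wif1 is a secreted protein that binds Wnt ligands and keeps them from their receptors. Acss1 is the mitochondrial enzyme that turns acetate into acetyl-CoA. Tmem94 is a membrane protein of the endoplasmic reticulum related to P-type ATPases and linked to magnesium handling.

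The study used neurons from littermate C57Bl/6 mouse embryos at day 14, WT or KO for Npas4, grown from the MGE, a source of inhibitory neurons, or from the cortex. All cultures were held quiet overnight after 9 days (the sample labels give 10 days in all) with the sodium channel blocker TTX and the NMDA receptor blocker AP-5, and then received 55 mM KCl for 0, 1 or 6 h. The question was how loss of Npas4 alters the response to activity in inhibitory and in excitatory neurons. Culture, genotype and time give 12 groups of 2 arrays, 24 in all: MGE WT, MGE KO, CTX WT and CTX KO, each at 0, 1 and 6 h. The labels name no allele, and they call the arrays of a group repeat 1 and repeat 2 without saying whether these were separate cultures or animals, so p-values measure the spread between these arrays, which may be technical.

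Npas4 itself, the targeted gene, lay between log2 intensities of 5.35 and 5.94 in all arrays at 0 h. It stood at 11.20 to 12.04 in WT cultures at 1 h and at 8.59 to 11.84 in WT at 6 h, and no KO array exceeded 7.82. Whether its probe set lies in the deleted sequence is not given in the sources used here. Averages of cell type markers followed the labels. The 17 interneuron markers averaged 10.8 to 11.3 in MGE arrays and 8.99 to 9.63 in CTX arrays. The 11 excitatory markers with a probe set averaged 6.70 to 7.21 against 11.1 to 11.4. Single markers did not all follow. In WT at 0 h, the excitatory marker Cux2 was higher in MGE than in CTX (means 13.68 and 12.39). Bcl11b was about equal (12.96 and 12.94). The interneuron markers Satb1 (9.54 and 12.46) and Calb1 (10.98 and 11.37) were higher in CTX. Over genes, repeat 1 and repeat 2 correlated with r between 0.965 and 0.992 in 11 groups. MGE WT at 0 h stood apart with 0.951 and 1507 genes over 2-fold apart, and CTX WT at 6 h followed with 980. The arrays measure whole cultures, so fewer cells of a type and less RNA per cell cannot be told apart.

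Promoters are shown first, because Npas4 acts on DNA and the genes were picked for their link to it. RefSeq promoter windows of the GRCm38.p6 build, from 250 bases before to 50 bases after a start site, were matched for 4 of the 5 genes, in 5 windows. Each was searched on both strands for TCGTG, the core of the site of Npas4 with Arnt, for the E-box CACGTG, for the full cyclic AMP response element TGACGTCA and its short core CGTCA, which lies within the full one, and for the AP-1 site TGANTCA. Below, the 250 bases before a start are printed 5′ to 3′ on the gene's strand, with matches in capitals. Tmem94 (chr11:115765183-115765432, plus strand) and the second start of Esr1 (chr10:4709908-4710157, plus strand) hold a TCGTG, Wif1 (chr10:121033754-121034003, plus strand) holds a CACGTG, and Acss1 (chr2:150668241-150668490, minus strand) is shown as a window with no match.
Tmem94: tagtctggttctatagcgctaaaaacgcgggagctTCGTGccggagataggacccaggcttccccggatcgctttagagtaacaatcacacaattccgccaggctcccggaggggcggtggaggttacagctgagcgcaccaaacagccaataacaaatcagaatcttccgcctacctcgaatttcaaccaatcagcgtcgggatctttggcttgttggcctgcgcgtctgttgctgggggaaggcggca
Esr1 second start: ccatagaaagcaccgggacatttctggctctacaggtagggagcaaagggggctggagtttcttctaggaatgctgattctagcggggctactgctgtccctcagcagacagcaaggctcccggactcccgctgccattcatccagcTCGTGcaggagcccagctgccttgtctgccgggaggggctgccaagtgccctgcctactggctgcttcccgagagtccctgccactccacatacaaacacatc
Wif1: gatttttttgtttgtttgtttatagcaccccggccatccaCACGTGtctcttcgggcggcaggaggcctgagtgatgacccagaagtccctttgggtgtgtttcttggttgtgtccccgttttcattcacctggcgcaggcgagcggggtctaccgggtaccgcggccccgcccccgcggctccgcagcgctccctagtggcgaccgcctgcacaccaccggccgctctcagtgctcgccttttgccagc
Acss1: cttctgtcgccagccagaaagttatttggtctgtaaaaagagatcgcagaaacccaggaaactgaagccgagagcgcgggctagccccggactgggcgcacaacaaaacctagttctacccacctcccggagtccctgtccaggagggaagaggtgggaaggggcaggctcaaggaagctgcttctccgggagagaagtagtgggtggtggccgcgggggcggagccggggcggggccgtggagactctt

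The TCGTG began 215 bases before the start of Tmem94 and 103 bases before the second start of Esr1, and the CACGTG 210 bases before the start of Wif1. No other match lay in the 5 windows, and the first Esr1 start (chr10:4611739-4611988, plus strand, not printed) had none. Such matches are common: of 32851 promoter windows of this length, 16.0% held TCGTG, 7.15% CACGTG, 1.79% TGACGTCA, 20.8% CGTCA and 7.81% TGANTCA. A match is only these letters in this window and shows no binding.

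Lmo2 (chr2:103957903-103981878, GRCm38.p6) had the lowest KO minus WT difference of all 12378 genes in MGE cultures at 6 h. The MGE WT arrays read 7.81 and 6.60 before KCl, 7.51 and 7.76 after 1 h, and 9.83 and 8.87 after 6 h (log2). The MGE KO arrays read 7.69 and 7.48, 8.08 and 7.62, and 7.33 and 6.26 at these times. WT and KO arrays overlapped at 0 and 1 h, and at 6 h both WT arrays lay above both KO arrays. At 6 h Lmo2 was above its 0 h level in WT (log2 2.14) and below it in KO (log2 -0.79), and KO minus WT was log2 -2.55. Repeat 2 of MGE WT at 0 h (6.60) and repeat 2 of MGE KO at 6 h (6.26) lay below the array median. These 2 values are not shown to be above background, so no folds are given for the differences that use them. The WT change rests in part on the array pair at 0 h that stood apart: it was 2.75 without repeat 1 and 1.54 without repeat 2 of MGE WT at 0 h.

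For Lmo2 the CTX WT arrays read 8.69 and 8.62 before KCl, 8.92 and 8.58 after 1 h, and 10.27 and 9.17 after 6 h (log2). The CTX KO arrays read 8.68 and 8.81, 8.96 and 9.07, and 8.25 and 7.17 at these times. The order of the groups at 6 h was thus the same as in MGE cultures, with no overlap between genotypes. The resting level of Lmo2 was lower in MGE WT than in CTX WT (MGE minus CTX -1.45), a difference that became -2.06 without repeat 1 and -0.84 without repeat 2 of MGE WT at 0 h.

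Esr1 (chr10:4611989-5005633) began at a lower level in MGE than in CTX cultures (MGE minus CTX in WT at 0 h -2.66). Its probe set exceeded the array median in 1 of 12 MGE arrays, repeat 1 of MGE WT at 6 h, so its other MGE levels are not shown to be above background and no folds are given for them. The MGE WT arrays read 6.12 and 5.55 before KCl, 6.38 and 5.32 after 1 h, and 7.62 and 6.62 after 6 h (log2). The MGE KO arrays read 6.30 and 5.50, 5.99 and 4.74, and 6.69 and 5.49 at these times. Repeat 1 exceeded repeat 2 in 6 of 6 MGE groups, by a mean of 0.98, which was about as large as the genotype difference at 6 h (log2 -1.03). At 6 h the lower WT array lay below the higher KO array. Both genotypes had the gap between repeats there. Within each repeat number the KO array lay below the WT array (6.69 against 7.62, and 5.49 against 6.62). The labels do not say that the number pairs arrays. The MGE WT change from 0 to 6 h was log2 1.29, and the MGE KO change was 0.19.

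For Esr1 the CTX WT arrays read 8.36 and 8.63 before KCl, 8.05 and 8.79 after 1 h, and 9.42 and 9.09 after 6 h (log2). The CTX KO arrays read 8.52 and 8.29, 8.34 and 8.10, and 9.26 and 8.91 at these times. Both genotypes were thus higher at 6 h, with repeat 1 of KO between the WT arrays and repeat 2 of KO below both. Another probe set of Esr1, above the array median in 5 of 24 arrays, showed no such pattern in MGE cultures: 6 h minus 0 h was -0.10 in WT, and KO minus WT at 6 h was 0.02. In CTX cultures that probe set rose from 0 to 6 h, by log2 0.70 ± 0.18 (SE) in WT (limma over all 45101 probe sets, adjusted p = 0.0083) and by 0.56 ± 0.18 in KO (adjusted p = 0.028). At 0 h it exceeded the array median in 1 of 2 CTX WT and 0 of 2 CTX KO arrays. The other 0 h levels are not shown to be above background, which limits both rises. The remaining Esr1 probe set exceeded the array median in 0 arrays, and its values are not read here.

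Wif1 (chr10:121034004-121100642) was near the bottom of the scale in every array but those of MGE cultures at 6 h. The MGE WT arrays read 4.71 and 4.69 before KCl, 4.67 and 4.74 after 1 h, and 6.89 and 7.37 after 6 h (log2). The MGE KO arrays read 4.69 and 4.78, 4.71 and 5.09, and 6.40 and 6.11 at these times. So Wif1 was also higher at 6 h in KO cultures, by log2 1.52 against 2.43 in WT, and ended below WT (log2 -0.88) with no overlap. The array median was log2 6.85 to 6.92, and Wif1 exceeded it in 2 arrays, those of MGE WT at 6 h. It entered the test only through that group, so its other levels are not shown to be above background and no folds are given for them.

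In CTX cultures Wif1 lay at 3.68 and 3.57 (0 h), 3.60 and 3.59 (1 h), and 4.26 and 4.08 (6 h) in WT, and at 3.63 and 3.90, 3.68 and 3.39, and 3.98 and 4.15 in KO. These are the lowest values of the gene, and all CTX arrays at 6 h lay above all CTX arrays at 0 and 1 h.

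Acss1 (chr2:150618111-150668240) was well measured, above the array median in 24 of 24 arrays. The MGE WT arrays read 9.86 and 10.33 before KCl, 9.87 and 10.34 after 1 h, and 11.49 and 11.64 after 6 h (log2). The MGE KO arrays read 9.86 and 10.19, 9.86 and 10.32, and 10.61 and 10.91 at these times. Like Wif1, Acss1 was also higher at 6 h in KO, by log2 0.74 (1.67-fold) against 1.47 (2.78-fold) in WT, and ended 1.75-fold below WT (log2 -0.81) with no overlap.

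For Acss1 the CTX WT arrays read 9.35 and 8.96 before KCl, 9.07 and 8.91 after 1 h, and 10.66 and 9.68 after 6 h (log2). The CTX KO arrays read 9.29 and 8.98, 9.24 and 8.78, and 9.96 and 9.23 at these times. Repeat 1 was the higher array in 6 of 6 CTX groups and the lower one in 6 of 6 MGE groups, and at 6 h the higher CTX KO array lay above the lower CTX WT array. Within each repeat number the CTX KO array at 6 h lay below the WT array (9.96 against 10.66, and 9.23 against 9.68). The remaining 2 probe sets of Acss1 exceeded the median in no array, and showed changes of 0.19 and -0.03 in MGE WT from 0 to 6 h.

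Tmem94 (chr11:115765419-115799033) stood at nearly the same level in all groups but those at 6 h. The MGE WT arrays read 8.54 and 8.07 before KCl, 8.43 and 8.58 after 1 h, and 9.47 and 9.24 after 6 h (log2). The MGE KO arrays read 8.56 and 8.50, 8.48 and 8.57, and 7.98 and 8.18 at these times. At 6 h both WT arrays lay above, and both KO arrays below, the arrays of their own genotype at 0 h. The WT change was log2 1.05 (2.06-fold), the KO change -0.46, and the genotypes were 2.42-fold apart (log2 -1.28). The CTX WT arrays read 8.59 and 8.32 before KCl, 8.49 and 8.35 after 1 h, and 9.19 and 8.20 after 6 h. The CTX KO arrays read 8.41 and 8.15, 8.39 and 8.58, and 7.94 and 8.01 at these times. At 6 h the CTX WT arrays parted, with repeat 1 above all other CTX arrays and repeat 2 near the level at rest, while both KO arrays lay below every other CTX array.

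**Figure D1:**
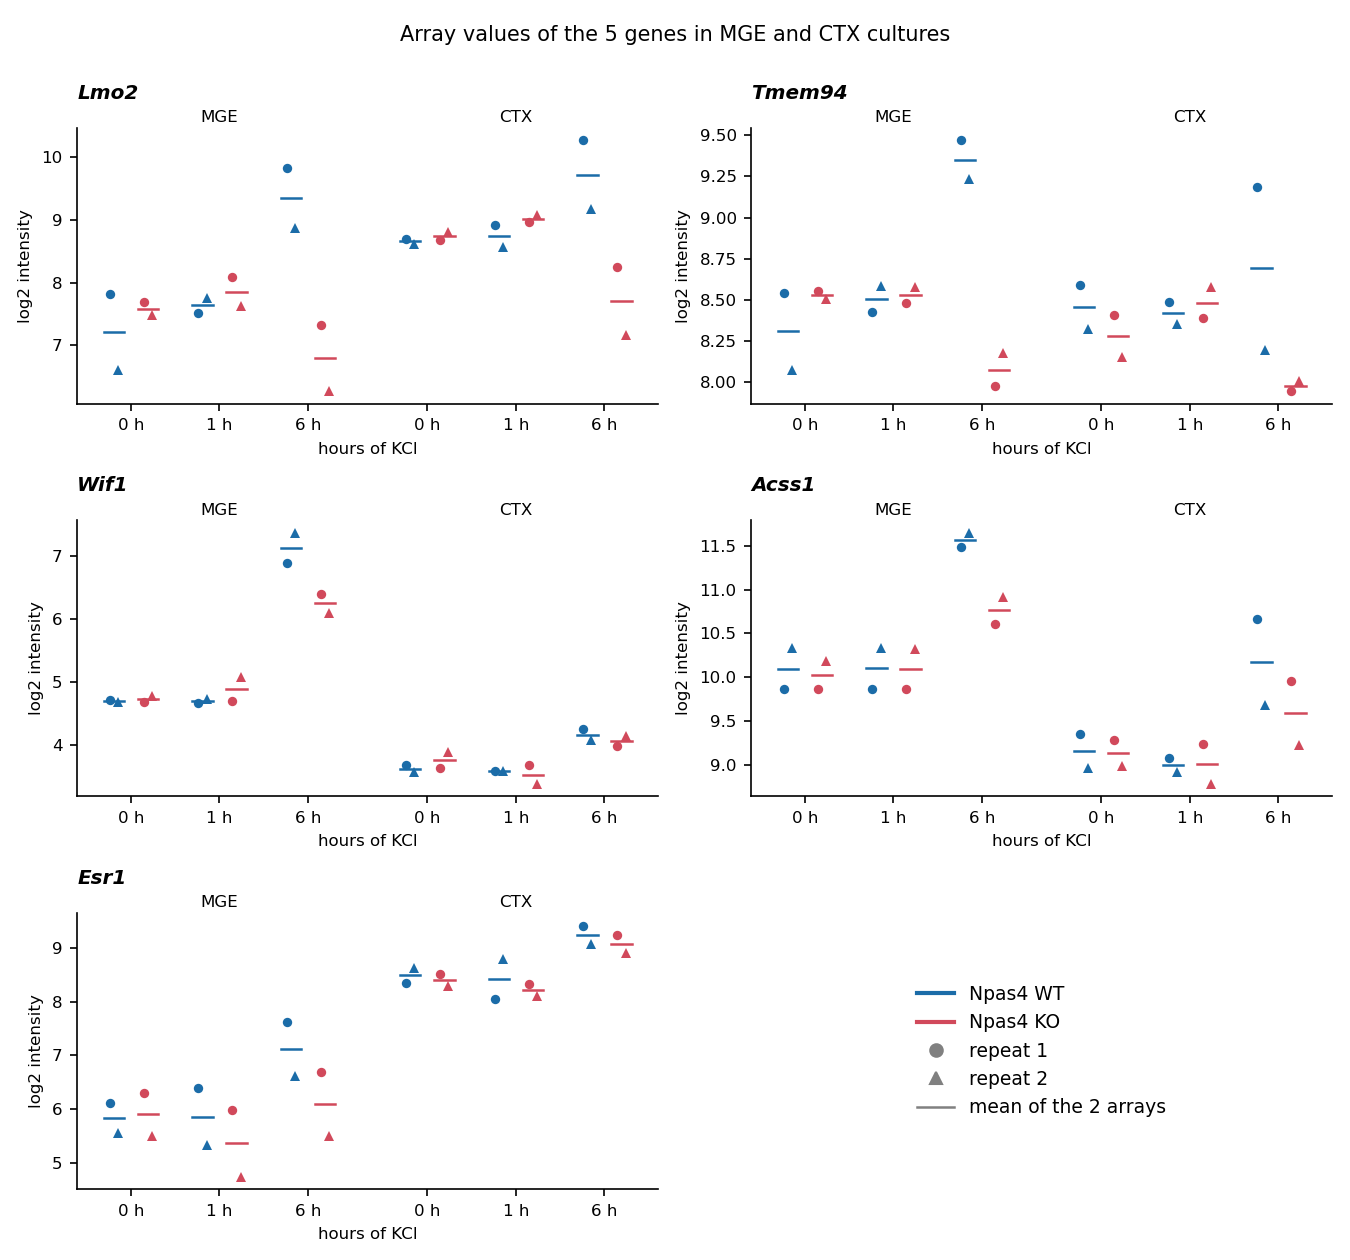
Log2 intensity of each gene (vertical axis) in the 24 arrays by hours of KCl (horizontal axis), MGE cultures left and CTX cultures right in each panel. Circles are repeat 1, triangles repeat 2, short lines the means of 2 arrays, blue is Npas4 WT and red Npas4 KO. In MGE cultures at 6 h the WT arrays of Lmo2 (9.83 and 8.87) lie far above the KO arrays (7.33 and 6.26), while Wif1 and Acss1 are also raised in KO.

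In MGE WT cultures, 5 of the 5 had both 6 h arrays above both 0 h arrays, as did 23.2% of all genes tested. At 6 h, 4 of 5 were lower in KO than in WT with no overlap, against 24.8% of all genes, and Esr1 overlapped. The choice of the genes fixed these counts, so nothing is read from them. The choice also left out others: 28 genes, the 5 and Npas4 among them, had an MGE WT change at least as high as that of Tmem94 together with a KO minus WT difference at least as low as that of Acss1.

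The 5 genes differed in what KO cultures still did over 6 h. In MGE KO, Wif1 and Acss1 had both 6 h arrays above both 0 h arrays, as did 21.7% of all genes tested. Lmo2 and Tmem94 were lower at 6 h with no overlap, as were 37.8% of all genes. Esr1 overlapped, and its KO change was -0.41 without repeat 1 and 0.79 without repeat 2 of MGE KO at 6 h. The WT response less the KO response differed accordingly: the KO change minus the WT change was -2.93 for Lmo2, -1.50 for Tmem94, -1.10 for Esr1, -0.91 for Wif1 and -0.74 for Acss1, each on the log2 scale. The MGE WT change from 0 to 1 h was 0.43 for Lmo2, 0.20 for Tmem94 and at most 0.02 for the other three, and arrays of the 2 times overlapped for each gene. The Lmo2 value was 1.04 without repeat 1 and -0.18 without repeat 2 of MGE WT at 0 h. KO minus WT at 1 h was 0.22 for Lmo2, 0.02 for Tmem94, 0.19 for Wif1, -0.01 for Acss1 and -0.49 for Esr1, also with overlap for each. The Esr1 value was -1.11 without repeat 1 and 0.14 without repeat 2 of MGE KO at 1 h.

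**Figure D2:**
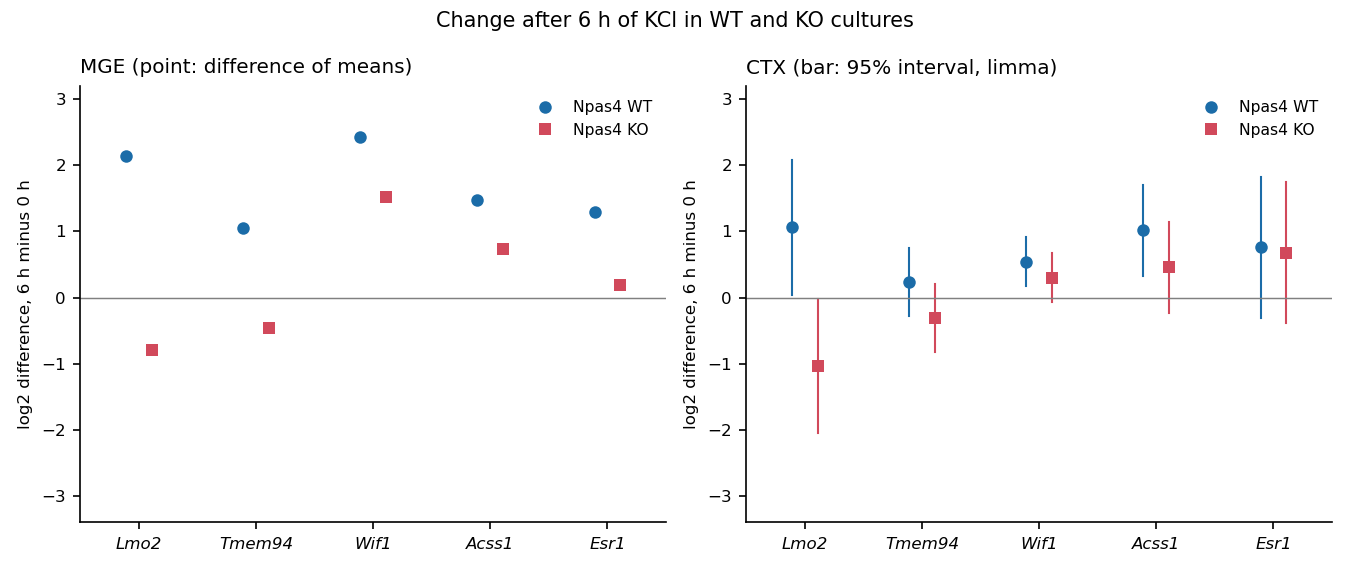
Change from 0 to 6 h of KCl on the log2 scale (vertical axis) for each gene, MGE left and CTX right, blue circles for Npas4 WT and red squares for Npas4 KO. MGE points are differences of means of 2 arrays with no interval because the genes were chosen on them, and CTX bars are 95% intervals of the limma fit. In MGE cultures KO points are below 0 for Lmo2 (-0.79) and Tmem94 (-0.46) and above 0 for Wif1 (1.52) and Acss1 (0.74).

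CTX cultures hold the arrays the choice does not name, and there Acss1 rose from 0 to 6 h in WT. For Acss1 the rise was 1.02 ± 0.32 on the log2 scale (SE, 2 arrays in each group; 2.03-fold; limma, Benjamini-Hochberg adjusted p = 0.023). Wif1 also passed (0.54 ± 0.17, adjusted p = 0.023), but it lay below the array median in 12 of 12 CTX arrays and was tested only through its high MGE WT group, so this call supports nothing. The difference was 1.06 ± 0.48 for Lmo2 (2.09-fold, adjusted p = 0.10), 0.76 ± 0.50 for Esr1 (adjusted p = 0.27) and 0.24 ± 0.24 for Tmem94 (adjusted p = 0.51), none of which passed. Of the 4 genes other than Wif1, 1 was called higher and 0 lower, where 10.5% of all genes tested were called higher and 24.8% lower. With no test, Lmo2, Acss1 and Esr1 were higher with no overlap, as were 23.6% of all genes.

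Single arrays carried part of these calls. Without CTX WT repeat 1 at 6 h, the difference was 0.53 for Acss1 and 0.46 for Wif1, and neither was called. Acss1 also lost its call without repeat 2 of CTX WT at 0 h (0.83), and Wif1 without either array of CTX WT at 0 h (0.60 and 0.49) or with 32 added to each intensity before the log (0.17). Without CTX WT repeat 2 at 6 h, Lmo2 passed (1.61), and Tmem94 passed as well (0.73), while without repeat 1 the Tmem94 difference turned to -0.26. Over the alternatives on the same probe set the adjusted p ran from 0.018 to 0.28 for Wif1, from 0.00027 to 0.27 for Acss1, from 0.033 to 0.53 for Lmo2 and from 0.011 to 0.87 for Tmem94. The other probe sets of Acss1, never above the array median, gave 0.85 and 0.69. The Esr1 difference ran from 0.59 to 0.93. Esr1 passed under 2 of 12 alternatives, the repeat number as a block and the culture fitted alone (0.76 in both).

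In CTX KO cultures, as in MGE KO cultures, the values of Lmo2 and Tmem94 at 6 h lay below those at 0 h with no overlap. In CTX KO this held for 44.3% of all genes. The difference was -1.04 ± 0.48 for Lmo2 (adjusted p = 0.11) and -0.31 ± 0.24 for Tmem94 (adjusted p = 0.37). It was 0.68 ± 0.50 for Esr1 (adjusted p = 0.33), 0.46 ± 0.32 for Acss1 (adjusted p = 0.31) and for Wif1 0.30 ± 0.17 (adjusted p = 0.20). By limma 0 of 5 were called, against 36.2% of all genes, and 1 of 5, Lmo2, had an unadjusted p under 0.05, as did 5423 of 12378 genes. Wif1 is counted in this and the following CTX counts, though it was tested only through MGE WT at 6 h. Lmo2 passed without repeat 1 of CTX KO at 6 h (-1.58, with an adjusted p between 0.036 and 0.57 over the alternatives).

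KO against WT at 6 h in CTX cultures called none of the 5. All 5 differences were below 0, with a median of -0.58 against -0.02 over all genes. The share of all genes below 0 was not counted. Counted from the lowest of 12378, Lmo2 ranked 3, Tmem94 132, Acss1 259, Esr1 2637 and Wif1 3910. Wif1 lay below the array median in every CTX array, so its sign adds nothing. Lmo2 had the lowest value of the 5, with a difference of -2.01 ± 0.48 (4.02-fold, 95% interval -3.03 to -0.99), the third lowest of 12378 genes, with an unadjusted p of 0.00081 and an adjusted p of 0.24 (limma). Tmem94 differed by -0.72 ± 0.24 (1.64-fold, 95% interval -1.23 to -0.20, unadjusted p = 0.0098, adjusted p = 0.87). Acss1 differed by -0.58 ± 0.32 (95% interval -1.27 to 0.11; -0.09 without repeat 1 and -1.07 without repeat 2 of CTX WT at 6 h, and -0.21 and -0.94 without repeat 2 and repeat 1 of CTX KO at 6 h). Leaving out 1 array sets unlike repeats of the genotypes against each other. For Acss1, repeat 1 was the higher array in 6 of 6 CTX groups. The difference was -0.17 ± 0.50 for Esr1 (-1.24 to 0.90) and -0.10 ± 0.17 for Wif1 (-0.47 to 0.27). For these 3 genes the adjusted p was 1 and the interval holds 0. For Esr1 and Acss1 it also holds their MGE differences of -1.03 and -0.81. The Esr1 interval rests on a spread shared with the MGE arrays, where its group SDs were 0.40 to 0.88 against 0.16 to 0.52 in CTX. Over the alternatives the CTX difference of Esr1 ran from -0.34 to 0.002.

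Of all genes, 0.0485% were called in that comparison (6 genes, with 429 at an unadjusted p under 0.05), and 10.8% were lower in KO with no overlap, as were 2 of the 5, Lmo2 and Tmem94. The number called moved with single arrays, to 129 without CTX WT repeat 1, 2 without CTX KO repeat 1 and 3 without CTX KO repeat 2 at 6 h. The Lmo2 difference ranged from -2.56 to -1.46 over the alternatives. It passed under 1 of 12, the fit with the repeat number as a block (limma, adjusted p = 0.037). The labels do not say that this number marks a shared litter or day. Tmem94 ranged from -1.21, where it passed without CTX WT repeat 2 at 6 h, to -0.22 without CTX WT repeat 1, with an adjusted p from 0.044 to 1.

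The difference between genotypes in the CTX change from 0 to 6 h was -2.10 ± 0.67 for Lmo2 (95% interval -3.54 to -0.66, unadjusted p = 0.0074, adjusted p = 1, limma). It was -0.56 ± 0.46 for Acss1, -0.54 ± 0.34 for Tmem94, -0.24 ± 0.24 for Wif1 and -0.08 ± 0.71 for Esr1, also with an adjusted p of 1. Without repeat 1 of CTX WT at 6 h the value was -0.07 for Acss1 and -0.05 for Tmem94, and without repeat 2 it was -1.05 and -1.04. Of all genes 0.00808% were called (1 gene, 120 at an unadjusted p under 0.05), and 0 of the 5.

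Before 6 h the CTX genotypes were not told apart for these genes. At 0 h the largest difference was -0.18 ± 0.24 for Tmem94, and at 1 h 0.27 ± 0.48 for Lmo2. Both KO arrays of Lmo2 at 1 h lay just above both WT arrays, as for 10.2% of all genes. By limma 0 of 5 were called at either time, none at an unadjusted p under 0.05, against 0% of all genes at 0 h (49 genes at an unadjusted p under 0.05) and 0.00808% at 1 h (1 gene, 80 unadjusted). From 0 to 1 h in CTX WT the changes lay between -0.16 (Acss1) and 0.09 (Lmo2), and 0 of 5 were called or had an unadjusted p under 0.05, against 0.864% of all genes called (107 genes, 38 without CTX WT repeat 1 at 1 h or repeat 2 at 0 h, and 50 without repeat 1 at 0 h). The intervals of these early differences were wide, for example -1.14 to 1.00 for 1 h minus 0 h of Esr1.

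**Figure D3:**
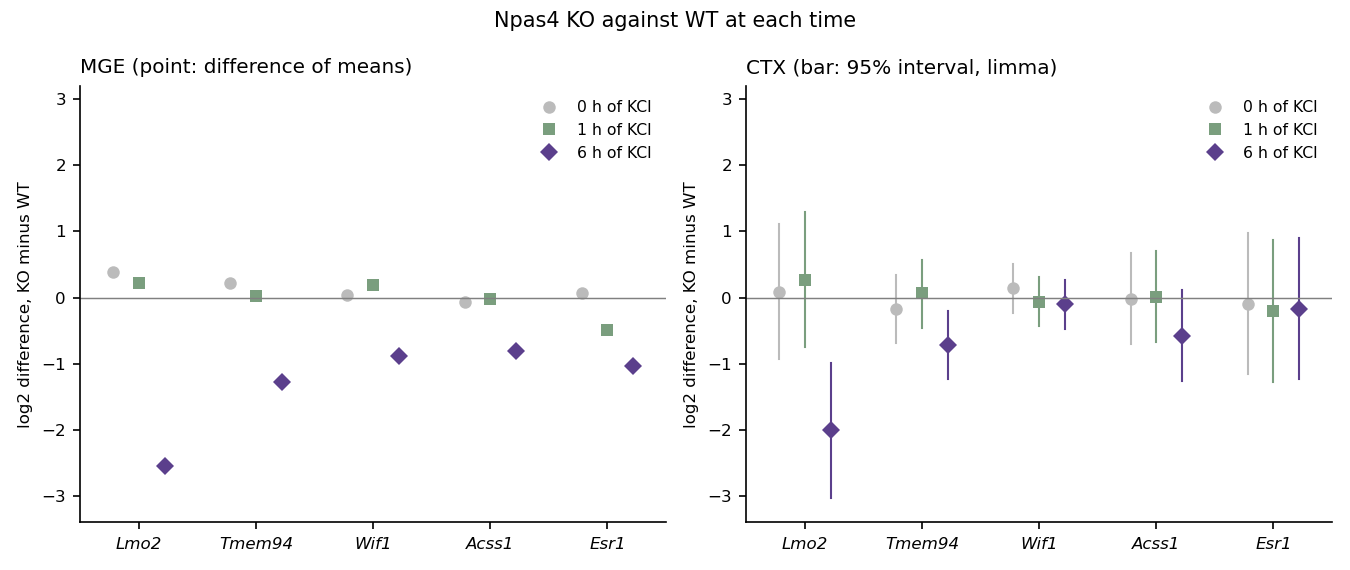
KO minus WT on the log2 scale (vertical axis) for each gene at 0, 1 and 6 h of KCl, MGE left (differences of means of 2 arrays, no interval) and CTX right (bars are 95% intervals of the limma fit). The 6 h points of Lmo2 are the lowest in both panels, -2.55 in MGE and -2.01 in CTX, and the 0 and 1 h points of all genes lie between -0.49 and 0.38.

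The order of the 12 groups differed from gene to gene. Lmo2 was highest in CTX WT and MGE WT at 6 h (means 9.72 and 9.35), which overlapped, and lowest in MGE KO at 6 h (6.80). Below them the 4 CTX groups at 0 and 1 h (8.66 to 9.02) lay apart from all MGE groups but MGE WT at 6 h, and CTX KO at 6 h (7.71) lay among the MGE groups. Tmem94 was highest in MGE WT at 6 h (9.35), apart from all other groups, and lowest in the KO groups at 6 h (8.08 and 7.98), while the other 9 means lay between 8.28 and 8.69 with overlap from each to the next.

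Wif1 and Acss1 were highest in MGE WT at 6 h (7.13 and 11.57) and next in MGE KO at 6 h (6.26 and 10.76), each apart from the group above. For Wif1 every MGE group lay above every CTX group (at most 4.17). For Acss1, CTX WT at 6 h (10.17) came next, among the MGE groups at 0 and 1 h (10.03 to 10.10). Esr1 was highest in the CTX groups at 6 h (9.25 in WT and 9.09 in KO, overlapping), then in the remaining CTX groups (8.22 to 8.49), and each CTX group lay apart from each MGE group (at most 7.12). Levels are not compared between genes, because probe sets differ in how strongly they bind.

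Over the 24 arrays, with each value centred on the mean of its own culture, the values of the 5 genes followed each other to different degrees. Lmo2 and Tmem94 followed each other with r = 0.87 (0.92 within MGE and 0.80 within CTX arrays), and each was the most alike of all tested genes to the other. Wif1 and Acss1 had r = 0.82 (0.94 within MGE and 0.77 within CTX arrays), where Acss1 ranked 83 by likeness to Wif1 among all tested genes. Esr1 was nearer to Wif1 (0.58) and Acss1 (0.55) than to Lmo2 (0.48) and Tmem94 (0.35), while Lmo2 and Wif1 had r = 0.36. These correlations describe arrays that share their groups, so a shared change at 6 h raises each of them, and the genes were chosen for such a change.

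**Figure D4:**
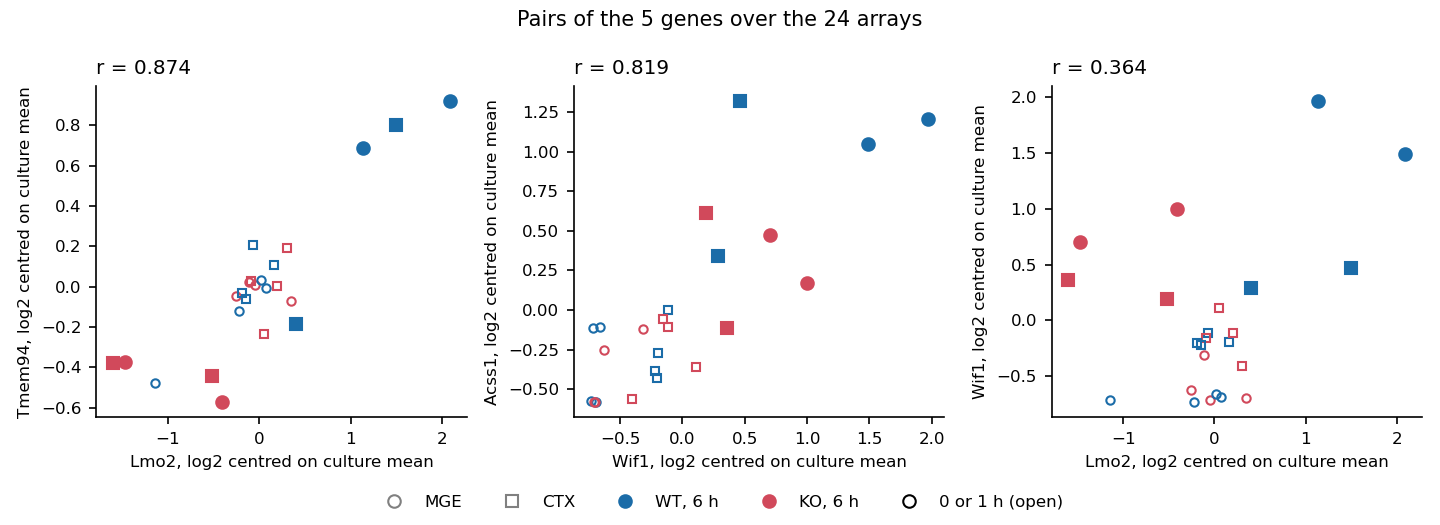
Each point is 1 of 24 arrays, placed by the log2 intensities of a pair of genes, each centred on the mean of the 12 arrays of its culture. Circles are MGE and squares CTX, filled at 6 h and open at 0 or 1 h, blue for WT and red for KO. In the Lmo2 and Tmem94 panel (r = 0.874) the 6 h KO arrays lie toward the low end, while in the Wif1 and Acss1 panel (r = 0.819) the MGE KO arrays at 6 h lie between the MGE arrays at 0 or 1 h and the MGE WT arrays at 6 h.

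By the same measure the most similar other genes to Lmo2 were Rrp36 (r = 0.78) and Slc25a36 (0.76), a mitochondrial nucleotide carrier, and those to Tmem94 were Slc25a42 (0.82), a mitochondrial carrier, and Mylk (0.79), myosin light chain kinase. Mylk differed between genotypes at 6 h by -1.72 in MGE and -1.05 in CTX cultures, and Rrp36 by -1.12 and -1.45. The most similar to Wif1 were Mir670hg (0.93), Il21 (0.93), a cytokine gene, and Sh3rf3 (0.93), after 1 gene with a Riken or predicted name was passed over. For Il21, 6 h minus 0 h was 4.10 in MGE WT and 0.15 in CTX WT. Those to Acss1 were Kcna1 (0.93), a voltage-gated potassium channel, Hunk (0.90), a kinase, and Ptp4a2 (0.90), a phosphatase, and Kcna1 differed between genotypes at 6 h by -1.07 in MGE and -0.53 in CTX cultures. Those to Esr1 were Amer2 (0.87), Sorcs3 (0.85), a sorting receptor, and Zim3 (0.83). No likeness was tested, and with 24 arrays in 12 groups, many genes that change at 6 h have a high r.

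**Figure D5:**
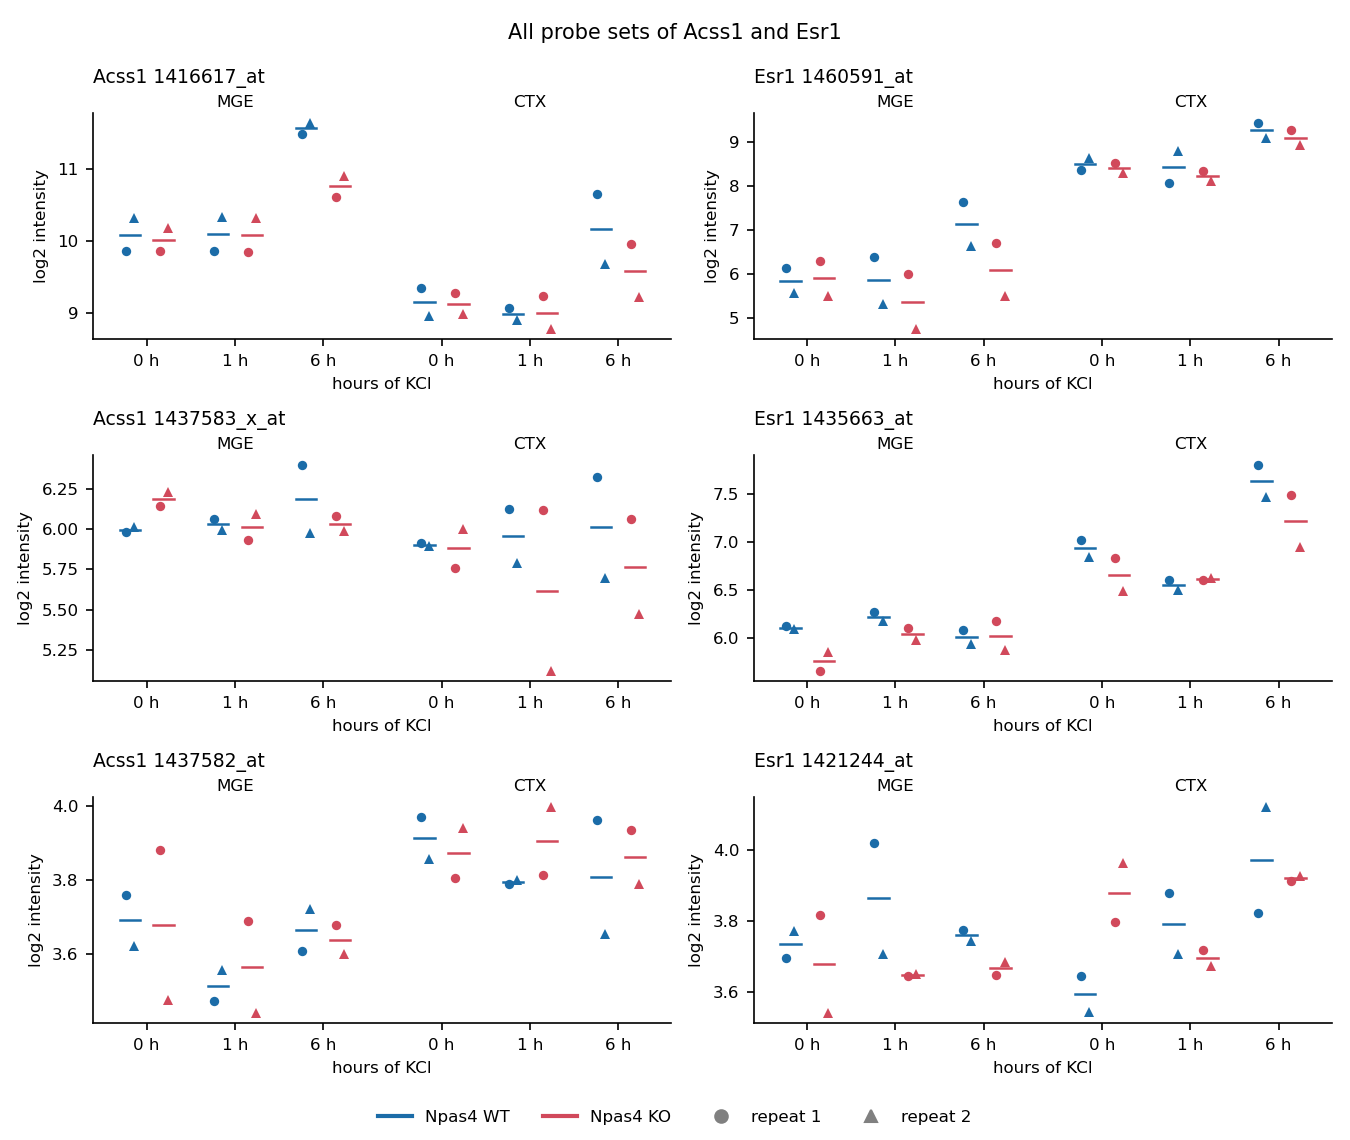
Log2 intensity (vertical axis) of the 3 probe sets of Acss1 (left column) and of Esr1 (right column) in the 24 arrays by hours of KCl (horizontal axis), symbols as in the plot of array values. Top panels are the probe sets used. The other Acss1 probe sets stay near the bottom of the scale (0.19 and -0.03 in MGE WT from 0 to 6 h), and the second Esr1 probe set is raised at 6 h in CTX cultures but not in MGE cultures (-0.10 in MGE WT).

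The genes that work with each of the 5 were then counted from 7 lists. At 6 h, 0 genes of any list were called between KO and WT in MGE or in CTX cultures by limma, against 0.0323% of all genes in MGE cultures (4 genes, 0 without MGE WT repeat 1 or without MGE KO repeat 2 at 6 h). The calls below are therefore those of depolarization in WT cultures. In MGE WT, 9.53% of all genes were called higher and 15.7% lower at 6 h against 0 h, in all 3128 genes, which became 5248 without repeat 1 and 1380 without repeat 2 at 0 h, and 1103 without repeat 1 at 6 h. In CTX WT, 10.5% were called higher and 24.8% lower. After these calls were seen, each was fitted again without each array of its 2 groups. Of 18 list calls in MGE WT, 5 held in every such fit (Apcdd1, Wnt7a, Cnnm1, Cnnm2 and Mmgt2). Of 23 in CTX WT, 11 did (Apcdd1, Wnt7a, Wnt5b, Dlat, Pgr, Nr3c2, Ncoa1, Cnnm3, Slc41a1, Slc41a2 and Mmgt1). The other calls below were lost without at least 1 array, and kept their direction. Mmgt1, Mmgt2 and Ncoa1 are named because their calls held, a choice made after their values were seen.

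In MGE WT from 0 to 6 h, 9.53% of all genes were called higher and 15.7% lower. The partners of Lmo2 had few calls. Of 13 tested partners and relatives, 0 were called in MGE WT (median change -0.15, all genes -0.05), and in CTX WT 2 of 13 fell, where 24.8% of all genes did: Ssbp3, a co-factor that steadies Ldb1 complexes, by 0.51 on the log2 scale (SE 0.17, adjusted p = 0.031), and Lmo4, a relative, by 0.46 (SE 0.13, adjusted p = 0.014). Of 10 oestrogen receptors, coregulators and targets, 2 rose in MGE WT, Nr3c1, the glucocorticoid receptor, by 1.28 ± 0.41 (SE) and Esrrg, an orphan receptor, by 0.55 ± 0.19 (median 0.00, all genes -0.05). In CTX WT 5 of the 10 fell and 0 rose, where 24.8% of all genes fell and 10.5% rose (median -0.47, all genes -0.10), among them Pgr, the progesterone receptor and a known target of Esr1 (-1.63 ± 0.38), Nr3c2, the mineralocorticoid receptor (-1.48 ± 0.22), and Nrip1, a corepressor (-0.78 ± 0.20).

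Wif1 belongs to a family of secreted Wnt inhibitors whose members went different ways. Beside the counts below, 9.53% of all genes were called higher and 15.7% lower in MGE WT. In CTX WT these shares were 10.5% and 24.8%. Of 8 tested, Frzb, a soluble decoy for Wnt ligands, rose in MGE WT (0.84 ± 0.19, SE), and Apcdd1, a membrane inhibitor (-1.12 ± 0.15), and Draxin (-0.90 ± 0.31) fell (median 0.00). In CTX WT, Sfrp2, another decoy (1.79 ± 0.46), and Frzb (0.74 ± 0.19) rose and Apcdd1 fell (-0.78 ± 0.15, median -0.05). Of 7 Wnt ligands, Wnt7a (-2.55 ± 0.24) and Wnt5b (-0.76 ± 0.22) fell and 0 rose in MGE WT (median -0.65), and Wnt9a (-1.86 ± 0.56), Wnt7a (-1.37 ± 0.24) and Wnt5b (-1.26 ± 0.22) fell and 0 rose in CTX WT (3 of 7, with 24.8% of all genes, median -0.44). Of 6 feedback targets of the pathway, Znrf3, which removes Wnt receptors, rose (1.62 ± 0.42) and Nkd2, an inhibitor inside the cell, fell (-1.08 ± 0.32) in MGE WT (median -0.04), and Lef1, a transcription factor of the pathway, rose in CTX WT (0.63 ± 0.21, median 0.15).

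Of 15 other genes of acetyl-CoA supply, Dld (0.61 ± 0.18, SE) and Pdha1 (0.31 ± 0.10), subunits of pyruvate dehydrogenase, rose in MGE WT, and Bdh1, an enzyme of ketone use, fell (-0.52 ± 0.13, list median 0.04). For this list and the next, 9.53% of all genes were called higher and 15.7% lower in MGE WT. In CTX WT 1 of the 15 fell, Dlat, also a pyruvate dehydrogenase subunit (-0.84 ± 0.14, median 0.04), and 0 rose. Of 17 genes of magnesium transport, 2 rose and 4 fell in MGE WT, with Cnnm2 (1.67 ± 0.22), Cnnm1 (-0.94 ± 0.15) and Nipal3 (-0.80 ± 0.26) the largest (median 0.14), and 2 rose and 6 fell in CTX WT, where 10.5% and 24.8% of all genes did, with Cnnm3 (-1.12 ± 0.22), Slc41a2 (-1.03 ± 0.18) and Slc41a1 (0.89 ± 0.13) the largest (median -0.44).

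Markers of other cells were set beside the 5 genes, since Lmo2 is known from blood and vessels and Acss1 from glia as well as neurons. Of 11 endothelial and mural markers, 6 never exceeded the array median (Pecam1, Cdh5, Tek, Cldn5, Tie1 and Emcn), and the list averaged 5.69 to 5.86 in MGE and 5.51 to 5.77 in CTX arrays. Of 6 blood markers with a probe set, 5 never did, with list averages of 5.44 to 5.72 and 5.69 to 6.00. The sixth, Hba-a2, an alpha globin, was high: its log2 means were 10.25 and 11.15 in MGE WT at 0 and 6 h and 12.68 and 12.85 in CTX WT. Its mean, like that of Lmo2, was higher in CTX than in MGE WT at 0 h. Such a difference is common, as 37.1% of all genes tested were lower in MGE there with no overlap. The KO minus WT value of Hba-a2 at 6 h was 0.09 in MGE and 0.00 in CTX cultures. The 9 astrocyte markers averaged 9.36 and 9.25 in MGE WT and 9.13 and 9.35 in MGE KO at 6 h. In CTX cultures at 6 h they averaged 9.22 and 9.67 in WT and 9.34 and 8.79 in KO, so repeat 2 of CTX KO was the lowest there. That array was also the lowest for Lmo2, Acss1 and Esr1, while repeat 1 of CTX KO was the lowest for Tmem94 and Wif1. In CTX WT at 6 h, repeat 2 had the higher astrocyte average and the lower value of each of the 5 genes. By limma 0 markers of any list were called between KO and WT at 6 h in either culture.

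Markers of several cell types were called in CTX WT from 0 to 6 h, where 10.5% of all genes were called higher and 24.8% lower. Of 8 astrocyte markers tested 1 rose, Sox9 (2.42 ± 0.45, SE), and of 9 progenitor markers Sox2 rose (1.59 ± 0.45) and Hes1 fell (-0.92 ± 0.22). Of 7 striatal, pallidal or cholinergic markers Isl1 (3.33 ± 0.93) and Penk (1.88 ± 0.37) rose, and of 17 interneuron markers Sst (1.34 ± 0.29) and Npy (0.73 ± 0.22) rose. Of 11 excitatory markers Fezf2 rose (1.36 ± 0.22) and 3 fell, Neurod1 (-1.57 ± 0.44), Emx1 (-0.74 ± 0.19) and Cux2 (-0.46 ± 0.17), the last named after its value was seen. By limma 0 of 5 oligodendrocyte, 0 of 6 microglial and 0 of 5 endothelial and mural markers tested were called. Of these 11 calls, 4 held without each array in turn (Sox9, Penk, Sst and Fezf2). In MGE WT, Dlx2 (1.37 ± 0.48) and Dlx6 (0.64 ± 0.16) rose and Cnp fell (-0.53 ± 0.18), and 0 of these 3 calls held in every such fit. Of all genes, 9.53% were called higher and 15.7% lower in MGE WT from 0 to 6 h. The part of other cells in the values of the 5 genes was not tested.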

How the data were processed

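Messenger RNA was measured on 24 Affymetrix whole-genome mouse arrays from 100 ng of total RNA, amplified with NuGEN Ovation V2 per the labels' protocols. The authors deposited 1 linear intensity per probe set (45101, from 6.61 to 29464), made with RMA per the submitters' processing notes (no version given). RMA brings arrays to a common distribution (medians 115 to 121), which hides any shift that most genes share. Whether both cultures were normalized together is not given in the sources used here. Intensities were converted to log2. Of the probe sets, 34958 named 1 gene, 932 several and 9211 none. Each gene took its probe set with the highest mean, and was tested if it exceeded the median of 2 or more arrays (12378 of 18194 genes). RefSeq tables (GRCm38.p6) gave positions.

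Tests used limma 3.58.1 in R 4.3.3: 12 group means over all 24 arrays, 12 residual and 2.408 prior degrees of freedom, two-sided, Benjamini-Hochberg over all genes, called at an adjusted p under 0.05. The number of arrays limits the precision. Errors are standard errors (SE). The procedure was tested on simulated data. The 5 genes, the lists, markers and motifs, from general knowledge, were chosen with earlier results of these data known. Named genes are the 5, Npas4, the 3 most similar genes per gene (Riken, Gm and predicted names passed over) and up to 3 called genes with the largest change per list. Alternatives were no filter, a filter of 4 arrays, quantile and cyclic loess normalization, an offset of 32, trend with robust estimation, the repeat number as a block, each culture fitted alone, other probe sets, and leaving out each array (for list and marker calls, chosen after seeing the data).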

Additional observations from a re-analysis of the deposited data

Results flagged for a closer look

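For 2 of the 5 genes, effects under the same contrast went opposite ways with no overlap of arrays. Each single effect is common with 2 arrays in a group. Of all genes tested, 23.2% rose in MGE WT and 37.8% fell in MGE KO from 0 to 6 h with no overlap. In CTX cultures these shares were 23.6% in WT and 44.3% in KO. The share of genes with both effects at once was not counted. For Lmo2, 6 h minus 0 h was -0.79 in MGE KO and 2.14 in MGE WT, a difference of -2.93 that was not tested because the gene was chosen on these arrays. In CTX cultures these values were -1.04 in KO and 1.06 in WT, a difference of -2.10 whose own test had an adjusted p of 1 (limma, 0.65 to 1 over the alternatives). Also in CTX cultures, KO minus WT of Lmo2 was -2.01 at 6 h and 0.27 at 1 h, a difference of -2.28 that was not tested. The 1 h value was not called (0.27 ± 0.48, limma, unadjusted p = 0.58). Of all genes, 10.8% were lower in KO at 6 h and 10.2% higher at 1 h with no overlap. For Tmem94, 6 h minus 0 h was -0.46 in MGE KO and 1.05 in MGE WT, a difference of -1.50 that was not tested for the same reason as in Lmo2. Groups of 2 arrays are too small for a search for outlying arrays.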

How the results depend on the processing

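Of 461 alternative values of the 35 CTX results of the 5 genes, 405 (87.9%) kept the direction and the side of the threshold, 9 lost a call, 14 gained one and 33 turned direction. Of 519 alternative values of the 40 MGE descriptions, 464 stayed within 1 SD of the arrays. Except where stated, the cause of a change was not tested. Wif1 has no value with the filter of 4 arrays, since it exceeded the median in 2. Each group has 2 arrays, which limits every result. Dim probe sets are limited further by background. These are Wif1 outside MGE WT at 6 h, Esr1 in MGE, the check sets of Acss1 and the dimmer one of Esr1. The brighter check set of Esr1 is dim as well outside CTX at 6 h, except in 1 array of CTX WT at 0 h. The same holds for repeat 2 of Lmo2 in MGE WT at 0 h and in MGE KO at 6 h.

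In CTX WT from 0 to 6 h, Wif1 lost its call with the offset of 32 (0.174) and with trend and robust estimation (0.544), and with the culture fitted alone Acss1 lost its call (1.018) and Esr1 gained one (0.76). The other probe sets gave 0.107 and -0.106 for Acss1 and 0.699 and 0.377 for Esr1 there, and 0.055 for Acss1 and 0.198 for Esr1 from 0 to 1 h. In CTX KO from 0 to 6 h they gave -0.114 and -0.011 for Acss1 and 0.559 for Esr1. For KO minus WT in CTX they gave 0.055 for Acss1 at 6 h, -0.342 for Acss1 and 0.065 for Esr1 at 1 h, 0.285 for Esr1 at 0 h and 0.095 for Acss1 in the 6 h response. In MGE cultures they gave -0.025 for Acss1 and -0.099 for Esr1 in WT from 0 to 6 h, -0.156 and -0.041 for Acss1 in KO, and 0.015 for Esr1 in KO minus WT at 6 h. They also gave 0.367 for Esr1 in the 6 h response, and -0.222 for Acss1 and 0.139 for Esr1 in MGE minus CTX.

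The number of genes called between KO and WT at 6 h in CTX, 6, became 14 with no filter, 12 with quantile normalization, 13 with cyclic loess, 17 with the offset, 13 with trend and robust estimation and 3 with the culture alone. The 4 genes called in MGE became 2 with the culture alone.

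With the repeat number as a block, 6 of the 35 calls of the 5 genes changed, all gained, at adjusted p-values from 0.021 to 0.037. These were Lmo2 (1.061) and Esr1 (0.76) in CTX WT from 0 to 6 h, Lmo2 (-1.037), Acss1 (0.458) and Esr1 (0.681) in CTX KO from 0 to 6 h, and Lmo2 (-2.008) in KO minus WT at 6 h. With the block, 38 genes were called between KO and WT at 6 h in CTX and 10 in MGE. The labels do not say that a number marks a shared litter or day, so the block was kept as an alternative. Deviations of same-numbered arrays did correlate between groups, at 0.111 to 0.711 in CTX and -0.23 to 0.857 in MGE. They were over 0.1 in 15 and 13 of 15 pairs of groups, with 0.711 for CTX KO and WT at 6 h. The main fit does not use such shared deviations.

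Leaving out 1 array at a time gave these ranges. In CTX WT from 0 to 6 h they were 0.511 to 1.61 (Lmo2), -0.259 to 0.73 (Tmem94), 0.455 to 0.633 (Wif1) and 0.528 to 1.508 (Acss1). From 0 to 1 h they were -0.081 to 0.268 (Lmo2), -0.169 to 0.10 (Tmem94), -0.086 to 0.024 (Wif1), -0.352 to 0.033 (Acss1) and -0.441 to 0.299 (Esr1). Lmo2 in CTX KO from 0 to 6 h ran from -1.579 to -0.495. KO minus WT in CTX ran from -1.21 to -0.221 (Tmem94), -1.068 to -0.088 (Acss1) and -0.34 to 0.002 (Esr1) at 6 h. At 1 h it ran from -0.031 to 0.154 (Tmem94), -0.209 to 0.083 (Wif1), -0.213 to 0.243 (Acss1) and -0.572 to 0.168 (Esr1). At 0 h it ran from -0.211 to 0.175 (Acss1) and -0.224 to 0.045 (Esr1), and in the 6 h response from -1.036 to -0.046 (Tmem94), -1.05 to -0.071 (Acss1) and -0.251 to 0.092 (Esr1). In MGE, KO minus WT of Wif1 at 1 h ran from -0.001 to 0.384. Of the list and marker calls in WT from 0 to 6 h, refitted the same way as a choice made after seeing the data, 5 of 18 and 0 of 3 in MGE and 11 of 23 and 4 of 11 in CTX held in every fit, and 0 turned direction. Genes called ran from 2 to 129 between KO and WT at 6 h in CTX, from 0 to 5 in MGE, and from 1103 to 5248 in MGE WT from 0 to 6 h. Where a group keeps 1 array, that array is assumed to vary like the other groups.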
